A study of Mus musculus with 12 samples.

Results

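Regulatory T cells (Tregs) that lacked the inhibitory receptor Lag3 were compared between pancreatic islets and lymph nodes, using the 6 libraries of this genotype out of the 12 in the series. Members were chosen by the group name in the column headers of the deposited gene table, 3 columns called Lag3_islet and 3 called Lag3_NDL. The mice were a model of autoimmune diabetes, the genotype is given as Lag3 deficient in the series design and as Lag3 in the labels, and the tissue is islet or NDL, the non-draining lymph nodes. The other 6 libraries, Wt islet and Wt NDL with 3 each, served to estimate the spread and to test whether the tissue difference was other in Wt cells. All 4 groups are Tregs of the same model, and the labels call the material cytoplasmic RNA in one field and total RNA in another. The sources used here do not give how Lag3 was removed, the strain, age or sex, the sorting markers or any pooling of animals. Separate animals behind the replicates are not stated either, so p-values measure the spread between these libraries, which may be technical.

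Tregs are CD4 T cells defined by the transcription factor Foxp3 that restrain other immune cells. In lymph nodes most recirculate in a resting state, held by homing receptors such as Ccr7. In inflamed tissue they can meet antigen, which can induce immediate early genes, feedback inhibitors of signalling and suppressive molecules such as Ctla4 and Il10. Whether antigen had a part in the differences below was not tested. Lag3 binds MHC class II and dampens the response of the T cell that carries it, and the series asks what its loss does to Tregs in diabetes. Comparing the tissues within the deficient genotype describes how such cells differ at the site of disease.

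Values are in CPM, where 1 CPM is about 15.3 of the table's rescaled counts, after scaling by trimmed means of log ratios. The headers number the columns of each group 1, 2 and 1 again, and 1a and 1b tell the repeated numbers apart. Values of a group are always given in the order of libraries 1a, 2 and 1b, and differences are islet minus NDL on the scale of log2(CPM + 1) ± SE, 3 libraries against 3. This scale understates changes of weakly expressed genes. A gene passed the test at a Benjamini-Hochberg adjusted p under 0.05 in limma over 10868 genes.

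Across the 6 libraries, 2 stood apart. Islet library 2 lay at 161 on a first principal component that held 30.1% of the variance, where the other 5 lay between -66.5 and 19.7. NDL library 1b lay at -159 on the second component (27.4%), where the others lay between 5.51 and 70.5. Islet library 2 also had 927 tested genes listed at 0, against 399 to 789 in the other 5, and its column left out 28 of the whole numbers from 1 to 60, where NDL library 1b left out 5 and the other 4 none. Column totals lay within 1% of each other by the authors' scaling, so depth cannot be read from them and no counting intervals are given. Libraries correlated at Spearman 0.661 to 0.733 within islets, 0.718 to 0.882 within NDL and 0.616 to 0.811 between them. The 1b columns of both tissues also shared a higher share of the ribosomal transcript Rn45s, 1.53% in islets and 1.42% in NDL, against 0.149% to 0.541% in the other 4 libraries, and its part in the results was not tested. A term for the 1b columns in the model cannot change a tissue difference, because each group holds 1 such column, and alters only the estimated spread. With it 14 genes were higher and 0 lower, all 13 described here among them.

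The targeted gene itself was almost unread in both tissues. Lag3 held 1, 0 and 0 rescaled counts in the Lag3-deficient islet libraries and 1, 0 and 3 in the NDL libraries. In Wt cells it held 40, 48 and 120 in islets but only 2, 5 and 6 in NDL, so the labels could be checked on this gene in islets and hardly in NDL. Foxp3 was read in all 6 libraries, at 483, 224 and 341 CPM in islets and 585, 604 and 311 CPM in NDL (-0.52 ± 0.40, adjusted p = 0.751). Cd4, the coreceptor of helper and regulatory cells, measured 239, 183 and 115 CPM in islets and 172, 221 and 255 CPM in NDL (-0.32 ± 0.44, adjusted p = 0.866). Values of both genes overlapped between the tissues. Cd3e, a chain of the T cell receptor complex, differed by 0.40 ± 0.58 and Il2ra, the high-affinity IL-2 receptor chain, by -0.80 ± 0.44 (adjusted p = 0.623).

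Islet and NDL Tregs lacking Lag3 differed in 13 genes past the threshold, all higher in islets, and 0 genes passed as lower. These 13 were 0.12% of the 10868 tested genes. They were the inducible chaperones Hspa1a, Hspa1b and Hsp90aa1, the immediate early and stress genes Fos, Klf6 and Ppp1r15a, the feedback regulators Dusp1, Rgs1 and Rgs2, the receptor gene Ctla4, the cytokine gene Il10, and Igj and Hmbox1. At an unadjusted p under 0.05 there were 372 higher (3.42%) and 575 lower genes (5.29%). This split was 496 higher and 525 lower with size factors by the median of ratios (RLE), 461 and 473 in the second deposited table, and turned to 442 and 388 without islet library 2. A positive difference was measured for 4841 of all tested genes (44.5%), the share to set beside the positive members of each list below. At an adjusted p under 0.1 there were 29 genes (0.267%). Libraries of the 2 tissues did not overlap for 591 higher (5.44%) and 791 lower genes (7.28%). Voom weights in place of the trend gave 19 higher and 4 lower genes, 12 of the 13 among them. A fit of only the 6 Lag3-deficient libraries gave 8 higher and 0 lower genes, with 7 of the 13 among them. Igj, Hmbox1, Il10, Rgs1, Klf6 and Hsp90aa1 did not pass in that fit. With no filter on low values 7 genes were higher, all of them among the 13. The median over all genes was -0.15. With RLE factors it was -0.03, the counts became 25 higher and 1 lower, and all 13 genes passed again. Without islet library 1b the count was 14 higher and 18 lower (11 of the 13 among them), and without the 1b columns of all groups 15 higher and 9 lower (10 of the 13). Without both libraries that stood apart it was 14 higher and 2 lower, with 8 of the 13 among them.

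**Figure D1:**
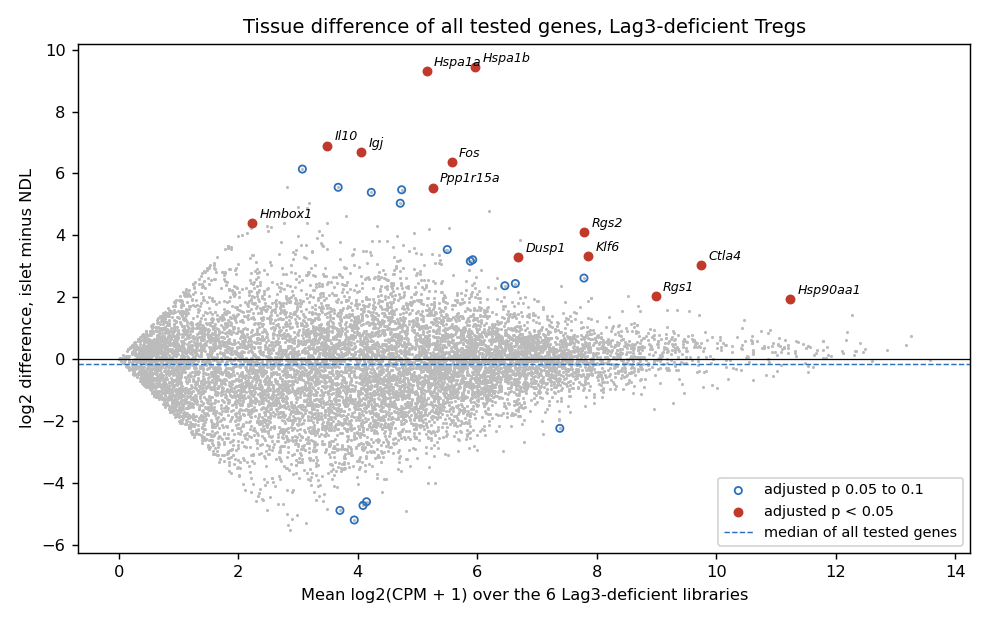
Each point is 1 of the 10868 tested genes, with its mean log2(CPM + 1) over the 6 Lag3-deficient libraries on the horizontal axis and its log2 difference, islet minus NDL, on the vertical axis. The 13 genes past the threshold (filled red) all lie above 0, from Hmbox1 at a low level to Hsp90aa1 at a high one, and open circles mark further genes with an adjusted p between 0.05 and 0.1.

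The heat shock genes Hspa1a and Hspa1b gave the largest differences of the 13, and Hsp90aa1 the smallest. The cytosolic chaperones of the Hsp70, Hsp90 and Hsp40 families refold damaged proteins, and Hspa1a and Hspa1b are neighbouring, nearly identical copies of the inducible Hsp70 gene that the heat shock factor Hsf1 switches on. Their coding sequences are so alike that reads could be split between them in counting, so the copies are reported together and their separate levels are uncertain. Their upstream windows are printed because these genes were near 0 in NDL and had the largest differences of all 13. They are the 250 bases before the start site in RefSeq's GRCm38.p6 table, where 9 of the 13 genes had an entry (not Hmbox1, Il10, Rgs1 or Hsp90aa1). Capitals mark the heat shock element core GAANNTTC, searched on both strands. The Hspa1a window is chr17:34972157-34972406 and that of Hspa1b chr17:34959239-34959488, both on the minus strand and printed 5′ to 3′ in the direction of transcription.
Hspa1a: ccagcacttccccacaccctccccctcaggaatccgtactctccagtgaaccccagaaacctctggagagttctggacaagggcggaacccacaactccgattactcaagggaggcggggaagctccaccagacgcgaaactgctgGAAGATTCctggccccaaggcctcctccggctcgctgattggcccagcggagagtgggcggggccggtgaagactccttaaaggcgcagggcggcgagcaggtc
Hspa1b: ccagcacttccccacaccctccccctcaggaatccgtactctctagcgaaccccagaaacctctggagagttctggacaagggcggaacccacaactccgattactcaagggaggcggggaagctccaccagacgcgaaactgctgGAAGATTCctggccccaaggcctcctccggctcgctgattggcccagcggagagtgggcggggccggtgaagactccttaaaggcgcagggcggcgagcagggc
The windows were identical at 247 of 250 positions (98.8%). Each held 1 match to the core, its first base at -104 from the start site, where 6.69% of the 32851 windows in the table held one. The window of Ctla4 (chr1:60908775-60909024) held one at -171 from the RefSeq start site. This window lies inside the GENCODE span given for Ctla4 below. A match is a description of the letters and not evidence of binding.

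Hspa1a (chromosome 17, 34969190 to 34972156, minus strand, GENCODE M21 on GRCm38) measured 1334, 681 and 787 CPM in islets and 0, 1.83 and 0 CPM in NDL. Hspa1b (chromosome 17, 34956436 to 34959238, minus strand) measured 1925, 1409 and 1647 CPM in islets and 0, 12.4 and 0 CPM in NDL. Every islet library was high, and in NDL only library 2 held any of either transcript. The log2 differences were 9.31 ± 0.81 for Hspa1a (adjusted p = 3.87e-06) and 9.44 ± 0.85 for Hspa1b (adjusted p = 3.87e-06). Against a group near 0 their size depends on the added constant, and over 19 other settings they ranged from 7.63 to 12.8 for Hspa1a and from 8.01 to 12.8 for Hspa1b, each past the threshold in all 19. Hsp90aa1, the inducible form of the Hsp90 chaperone (chromosome 12, 110690605 to 110702728, minus strand), measured 7629.5, 4002 and 3413 CPM in islets and 781, 2181 and 1114 CPM in NDL (1.93 ± 0.37, adjusted p = 0.0436). Its groups did not overlap, but it was the gene just inside the threshold and passed under 9 of 19 other settings, and without 1 library in turn under 2 of 6 (lost without islet library 1a or 2 or NDL library 1a or 1b, adjusted p up to 0.191).

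The heat shock list had 20 tested members, of which 18 were positive (44.5% of all genes), 3 rose (0.12% of all genes) and 0 fell. It had 13 members whose libraries did not overlap in the direction of islets, where 5.44% of all genes did. Its median difference was 1.36 against -0.15 over all genes. The Hsp40 co-chaperone Dnajb1 was the gene just outside the threshold, at 755, 449.8 and 478 CPM in islets and 54.1, 88.7 and 142 CPM in NDL (2.62 ± 0.52, adjusted p = 0.0588). Hspa8, the constitutive Hsp70, measured 8261 ± 2217 CPM in islets and 3174 ± 1088 CPM in NDL (mean ± SD, n = 3, 1.41 ± 0.33, adjusted p = 0.119). The small chaperone Hspb1 differed by 3.98 ± 1.31 and the Hsp70 co-chaperone Bag3 by 3.56 ± 1.32, neither past the threshold. Values nearer 0 were those of the Hsp90 co-chaperones Stip1 (0.12 ± 0.79) and Ahsa1 (0.02 ± 0.60) and the co-chaperone Cacybp (-0.13 ± 0.43). Chaperones of the endoplasmic reticulum, which fold secreted proteins, had 17 of 20 positive members, 0 that passed and a median of 0.72. Among them Hsp90b1 measured 1539, 1266 and 1052 CPM in islets and 454, 651 and 277 CPM in NDL (1.55 ± 0.36, adjusted p = 0.118), Hspa5, the main Hsp70 of this compartment, differed by 0.84 ± 0.35, the stress factor gene Ddit3 by 1.90 ± 0.71 and Calr by 0.78 ± 0.42.

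**Figure D2:**
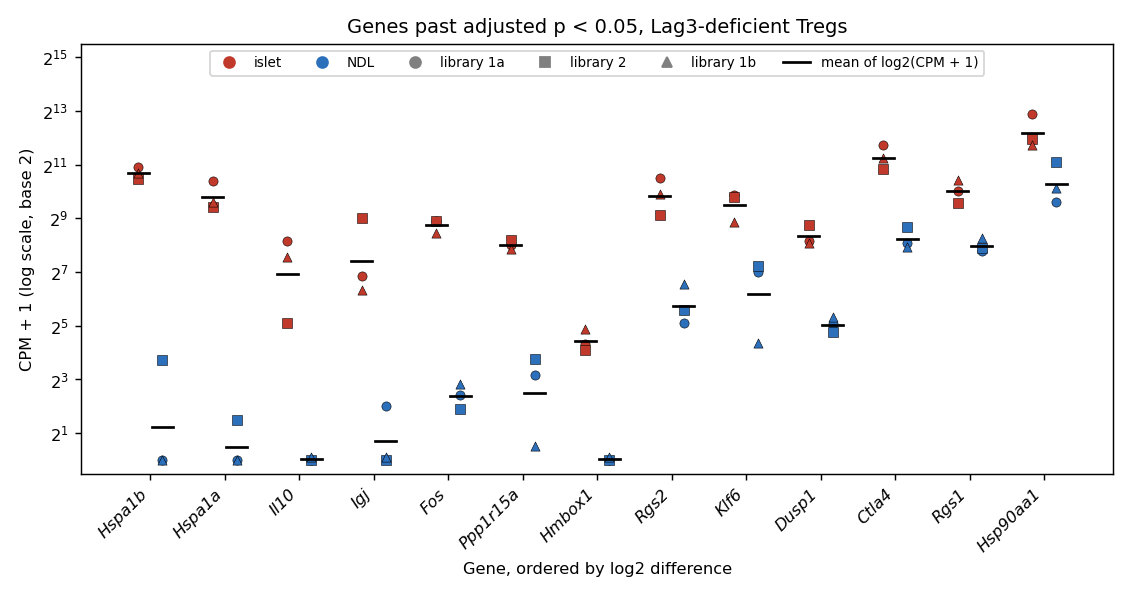
The 13 genes past the threshold are shown by library, with CPM + 1 on a log axis, islet libraries in red, NDL libraries in blue, 1 symbol per library number and a bar at the mean of log2(CPM + 1). For each gene all 3 islet libraries lie above all 3 NDL libraries, with NDL values near 0 for Hspa1a, Hspa1b, Il10, Igj and Hmbox1 and above 200 CPM for Ctla4, Rgs1 and Hsp90aa1.

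Immediate early genes, which are transcribed within minutes of receptor signalling or stress, gave 3 genes that rose. Fos, a subunit of the AP-1 factor (chromosome 12, 85473890 to 85477273, plus strand), measured 476, 481 and 351 CPM in islets and 4.36, 2.78 and 6.06 CPM in NDL (6.37 ± 0.75, 82.7-fold on the log2(CPM + 1) scale, adjusted p = 0.000171). No library of either tissue came near the other group, and Fos passed under all 19 other settings. Klf6, a Krüppel-like factor of activated cells (chromosome 13, 5861482 to 5870394, plus strand), measured 939, 897 and 462 CPM in islets and 128, 147 and 19.5 CPM in NDL (3.32 ± 0.62, adjusted p = 0.0307). NDL library 1b was its lowest, and without that library Klf6 differed by 2.40 and did not pass, as also without islet library 1a or 2. Ppp1r15a, which encodes the stress protein Gadd34 that restores translation (chromosome 7, 45522916 to 45526268, minus strand), measured 258, 294 and 230.1 CPM in islets and 7.96, 12.5 and 0.449 CPM in NDL (5.54 ± 0.86, adjusted p = 0.00586). It passed without each library in turn and was lost with voom weights and with no filter on low values (adjusted p up to 0.13).

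Of the immediate early list, 26 members were tested, 24 were positive, 3 rose (0.12% of all genes), 0 fell and 16 did not overlap in the direction of islets (5.44% of all genes). The median was 1.26. AP-1 partners of Fos did not pass at this threshold. Jun measured 188, 236 and 123 CPM in islets and 1.29, 23.1 and 0.15 CPM in NDL (5.47 ± 1.16, adjusted p = 0.0725), and Junb 156, 147 and 235 against 23.6, 33.2 and 8.08 CPM (3.16 ± 0.67, adjusted p = 0.0725). For both, the tissues did not overlap. Among the 19 tested bZIP factors, the class that holds AP-1, 17 were positive with a median of 1.40, and the cAMP-responsive Crem differed by 3.10 ± 0.83 (adjusted p = 0.204). Gadd45b, a stress-induced regulator of kinase signalling, measured 323, 47.3 and 232 CPM in islets and 7.29, 9.02 and 26.9 CPM in NDL (3.54 ± 0.75, adjusted p = 0.0725), with islet library 2 the lowest of its group. Pmaip1, which encodes the death promoting protein Noxa, measured 451, 546 and 255 against 12.9, 34.7 and 40.8 CPM (3.86 ± 0.92, adjusted p = 0.122).

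Genes that limit signalling formed the next group. Dusp1, a phosphatase that switches off MAP kinases (chromosome 17, 26505590 to 26562128, minus strand), measured 283, 435 and 269 CPM in islets and 32.1, 25.9 and 39 CPM in NDL (3.29 ± 0.55, adjusted p = 0.011). The groups were separate by a wide gap, and the gene still differed by 3.02 to 3.43 without each library in turn, past the threshold in 4 of 6 (lost without islet library 2 or NDL library 2, adjusted p 0.0663 at most). Dusp1 was the 1 member that passed among 10 tested Dusp and Spry genes (0.12% of all genes rose), 5 of them positive (44.5% of all genes). The phosphatase gene Dusp14 differed by 2.95 ± 1.28, Dusp6 by -1.88 ± 1.26 and Spry1 by 1.67 ± 1.13. The windows of Dusp1 and Ppp1r15a are printed because both held the full cAMP response element TGACGTCA, marked in capitals, which 1.55% of all windows held. The windows are chr17:26508473-26508722 and chr7:45526269-45526518 (minus strand, GRCm38.p6, RefSeq). The RefSeq start site of Dusp1 lies inside the GENCODE span given above, so its window lies inside that span too.
Dusp1: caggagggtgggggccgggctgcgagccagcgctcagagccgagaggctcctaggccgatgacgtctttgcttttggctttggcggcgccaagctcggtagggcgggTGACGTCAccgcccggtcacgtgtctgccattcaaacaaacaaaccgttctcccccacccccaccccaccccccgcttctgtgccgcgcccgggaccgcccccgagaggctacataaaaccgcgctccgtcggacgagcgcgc
Ppp1r15a: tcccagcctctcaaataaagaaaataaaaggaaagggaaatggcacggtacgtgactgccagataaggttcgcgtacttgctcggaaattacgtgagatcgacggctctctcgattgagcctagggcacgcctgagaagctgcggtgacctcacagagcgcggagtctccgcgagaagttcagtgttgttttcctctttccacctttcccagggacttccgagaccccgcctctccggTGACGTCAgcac
The match began at -143 in Dusp1 and at -12 in Ppp1r15a. Searched in the same 9 windows, the AP-1 motif TGANTCA (6.75% of all windows) and the CArG box (1.47%) had no match, and the NF-kB site (7.25%) matched in Fos, Hspa1a and Hspa1b.

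Rgs proteins shorten signals from G protein coupled receptors, among them chemokine receptors. Rgs2 (chromosome 1, 143999338 to 144004161, minus strand) measured 1438, 555 and 973 CPM in islets and 33, 46.9 and 92.7 CPM in NDL (4.11 ± 0.55, 17.2-fold, adjusted p = 0.000896). It passed under all 19 other settings. Rgs1 (chromosome 1, 144242296 to 144249242, minus strand) measured 1039, 756 and 1377 CPM in islets and 218, 235 and 305 CPM in NDL (2.03 ± 0.37, 4.1-fold, adjusted p = 0.0245). Its difference was 1.82 to 2.20 without each library in turn, and it passed in only 2 of those 6 fits, lost without islet library 1a or 1b or NDL library 1a or 2. Rgs16 differed by 3.68 ± 1.16 without passing (adjusted p = 0.312), at 36.6, 46.7 and 28.9 CPM in islets and 2.59, 0.82 and 2.92 CPM in NDL. Of 8 tested Rgs genes 4 were positive (44.5% of all genes) and 2 rose (0.12% of all genes), and Rgs19 differed by -1.88 ± 1.43. In the NF-kB pathway 12 of 24 members were positive with a median of -0.01 and 0 passed. Its inhibitors were among the larger values, with Tnfaip3, the A20 protein, at 793, 260.4 and 274 CPM in islets and 54.5, 48.3 and 0 CPM in NDL (4.78 ± 1.12, adjusted p = 0.122) and Nfkbia at 852, 403 and 620.0 against 227, 286 and 321 CPM (1.12 ± 0.41). The CARMA complex gene Malt1 differed by 2.17 ± 0.64 and the kinase scaffold gene Ikbkg by 2.34 ± 1.13.

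Ctla4 was the inhibitory receptor that rose. It encodes the receptor that removes the costimulatory ligands CD80 and CD86 and is central to suppression by Tregs (chromosome 1, 60887000 to 60915832, plus strand). It measured 3371, 1825 and 2439 CPM in islets and 271, 408 and 242 CPM in NDL, means of 2545 ± 778 and 307 ± 88.8 CPM (SD, n = 3). All 3 islet libraries stood above all 3 NDL libraries. Ctla4 differed by 3.04 ± 0.34, 8.22-fold (adjusted p = 8.77e-05), and passed under all 19 other settings with values from 2.65 to 3.26. Of 17 tested inhibitory receptor genes 11 were positive (44.5% of all genes), 1 rose (0.12% of all genes) and 0 fell, with a median of 0.73. Pdcd1, which encodes PD-1, measured 132, 58.5 and 109 CPM in islets and 19.2, 25.4 and 35.2 CPM in NDL (1.83 ± 0.65, adjusted p = 0.426). Tigit, a receptor for CD155, measured 55.3, 73.9 and 43.4 against 15.2, 4.42 and 0.449 CPM (3.51 ± 1.28, adjusted p = 0.426), and Btla 2.11, 96.9 and 3.89 against 71.6, 82.6 and 102 CPM (-2.90 ± 1.25). Tissues did not overlap for Pdcd1 and Tigit and overlapped for Btla.

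Il10 was the secreted suppressive factor that rose. The gene (chromosome 1, 131019845 to 131024974, plus strand) measured 284, 33.1 and 189 CPM in islets and 0, 0 and 0.0748 CPM in NDL (6.90 ± 1.25, adjusted p = 0.0245). Islet library 2 held the least, and the 3 NDL libraries together held 1 rescaled count. The size of the difference therefore depends on the added constant (4.98 to 11.3 over the other settings). Il10 entered the test mainly through the islet libraries in which it was high, which favoured a difference. It passed under 12 of 19 other settings, lost among others with no filter on low values and with only the 6 Lag3-deficient libraries. Without each library in turn it passed in 2 of 6 fits, lost without islet library 1a or 1b or NDL library 1a or 2. Effector Treg genes had 28 of 32 tested members positive, 13 without overlap in the direction of islets (5.44% of all genes), 1 that rose (0.12% of all genes) and a median of 1.18. Areg, a growth factor of tissue repair, measured 45.7, 17.5 and 129.8 CPM in islets and 0.0959, 0 and 0 CPM in NDL (5.55 ± 1.31, adjusted p = 0.122). Penk, which encodes an opioid precursor, measured 109, 192 and 83 CPM in islets and 6.66, 2.14 and 0 CPM in NDL (5.39 ± 1.19, adjusted p = 0.0906), and the transcription factor gene Bhlhe40 306, 112 and 95.7 against 9.83, 0.946 and 3.52 CPM (5.04 ± 1.13, adjusted p = 0.0954). All 3 had non-overlapping tissues without passing. Among effector cytokine and granule genes 8 of 12 tested were positive and 0 passed. The chemokine gene Ccl4 measured 65.6, 7.54 and 61.9 CPM in islets and 0, 0.883 and 0 CPM in NDL (4.74 ± 1.24), Ccl5 91.5, 52.8 and 65.4 against 7.91, 10.1 and 6.51 CPM (2.93 ± 0.84, adjusted p = 0.257), and Gzmb, a granule protease, 113, 75.5 and 105 against 9.54, 59.7 and 0 CPM (3.50 ± 1.44). Lta, a cytokine of lymphoid organisation, differed by -2.29 ± 0.90.

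Treg identity genes showed no common direction. Of 21 tested members 10 were positive (44.5% of all genes) and the median was -0.27. Of these members 1 (Ctla4, which stands in both lists) rose (0.12% of all genes) and 0 fell. Gpr83, a receptor gene of resting Tregs, measured 77.9, 51 and 30.5 CPM in islets and 149.6, 179 and 211 CPM in NDL (-1.82 ± 0.57, adjusted p = 0.292). Cd5, a brake on the T cell receptor, measured 193, 151 and 313 against 367, 379 and 316 CPM (-0.76 ± 0.40, adjusted p = 0.613). These were the 2 members whose islet libraries all lay below the NDL libraries, as for 7.28% of all genes. Ikzf2, the gene of the Treg factor Helios, differed by 0.37 ± 0.33, and Ikzf4, which encodes Eos, by 0.26 ± 1.05. The T cell receptor complex and its kinases had 9 of 22 positive members and 0 that passed, with Lck at -0.92 ± 0.41 and the phosphatase gene Ptprc at -0.56 ± 0.35. For IL-2 and STAT5 signalling 9 of 19 were positive with a median of -0.08. The survival gene Bcl2 measured 67.2, 24.3 and 90.9 CPM in islets and 143, 283 and 173 CPM in NDL (-1.83 ± 0.61, adjusted p = 0.385), the STAT5 target Cish 198, 72.5 and 156 against 164, 387 and 865 CPM (-1.53 ± 0.54), and Socs3 differed by 2.30 ± 1.07.

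Genes of naive and recirculating T cells mostly had negative differences, with 0 past the threshold. Of 20 tested members 3 were positive and 17 negative, 8 had an unadjusted p under 0.05 on the lower side (5.29% of all genes), and the median of -1.03 was the lowest of the 28 non-marker lists. Igfbp4, a binding protein of insulin-like growth factors, measured 0.0754, 0.33 and 5.41 CPM in islets and 59.8, 41.9 and 81 CPM in NDL (-4.84 ± 1.31, adjusted p = 0.204). Actn1, an actin crosslinker of resting cells, measured 10.6, 0.33 and 39 against 109, 105 and 40.4 CPM (-3.21 ± 0.98, adjusted p = 0.291), and Bach2, a repressor that keeps T cells resting, 15.7, 8.15 and 38.6 against 117, 177 and 33.8 CPM (-2.31 ± 0.86, adjusted p = 0.444). Islet library 2 was the lowest of its group for Actn1 and Bach2. Values of Bach2 overlapped between tissues, and those of Igfbp4 and Actn1 did not. Id3, an inhibitor of E proteins, measured 28.9, 1.82 and 38.7 against 117, 117 and 96.8 CPM (-2.89 ± 0.88, adjusted p = 0.29), and its relative Id2 181, 160.3 and 137 against 42.8, 38.1 and 65.3 CPM in the other direction (1.72 ± 0.52, adjusted p = 0.283).

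Homing and adhesion genes differed by receptor. The lymph node receptor Ccr7 measured 215, 138 and 158 CPM in islets and 331, 471 and 315 CPM in NDL (-1.13 ± 0.42, adjusted p = 0.445), lower in every islet library. The receptor genes Ccr2, Cxcr3 and Cxcr4 stood the other way. Ccr2 measured 218, 168 and 216 CPM in islets and 30.8, 41.3 and 42.3 CPM in NDL (2.37 ± 0.52, adjusted p = 0.0906), and Cxcr3, the receptor for interferon-induced chemokines, 149, 132 and 412 against 35.2, 29.5 and 0.0748 CPM (4.25 ± 1.31, adjusted p = 0.291). Cxcr4 measured 182, 77.7 and 72.9 against 5.66, 11.3 and 9.8 CPM (3.41 ± 0.83, adjusted p = 0.134). None of the 4 passed, and 12 of the 18 tested chemokine receptor genes were positive (median 0.94). Of 10 integrin genes 7 were positive, and Itgav measured 109.8, 104 and 156 against 57, 15 and 24.7 CPM (2.09 ± 0.71), Itga4 differed by 0.97 ± 0.57, Itgb1 by 0.43 ± 0.38 and Itgb3 by -3.09 ± 1.49. Among cytokine receptors 10 of 20 were positive. The decoy receptor Il1r2 measured 199, 53 and 208 CPM in islets and 22.7, 32.6 and 1.57 CPM in NDL (3.37 ± 0.94, adjusted p = 0.228), and Il6st, Tgfbr1 and Tgfbr3 differed by 1.57 ± 0.71, -1.82 ± 0.85 and -3.80 ± 1.51. Costimulatory receptors had 8 of 16 positive, with Icos at 1.06 ± 0.49, Tnfrsf1b at 1.05 ± 0.58, Tnfrsf25 at -2.70 ± 1.19 and the ligand gene Cd40lg at -3.07 ± 1.15. The calcium-binding and galectin genes of tissue T cells had 11 of 18 positive. Lgals1 measured 674, 484 and 623 against 198, 273 and 336 CPM (1.16 ± 0.37), S100a6 193, 125 and 347 against 47.5, 60.9 and 65.3 CPM (1.81 ± 0.55), and S100a4 and Lgals3 differed by 1.83 ± 0.59 and 2.85 ± 1.30.

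Cell cycle genes were mostly positive, with 0 past the threshold. The mitosis list had 38 of 42 members positive and 15 with an unadjusted p under 0.05 on the higher side (3.42% of all genes). For 14 members the tissues did not overlap in the direction of islets (5.44% of all genes). The median was 1.70 and ranged from 1.12 (without islet library 1b) to 2.00 (without NDL library 2) without each library in turn. Without islet library 1b it lay below the medians of bZIP (2.01), immediate early (1.95), heat shock (1.48) and effector Treg genes (1.14). Ube2c, the ubiquitin carrier of the mitotic exit complex, measured 169.8, 158 and 231 CPM in islets and 9.3, 30.8 and 23.2 CPM in NDL (3.21 ± 0.68, adjusted p = 0.0725). Top2a, which untangles DNA in dividing cells, measured 439, 284 and 458 against 45.9, 58 and 149 CPM (2.37 ± 0.54, adjusted p = 0.108). Ccna2, a cyclin, measured 97.8, 106 and 193 against 4.36, 20.6 and 21.3 CPM (3.21 ± 0.79, adjusted p = 0.136), and the mitotic kinesin gene Kif2c differed by 4.64 ± 1.39. These genes had separate tissues, while Mki67, the usual marker of cycling cells, overlapped at 100, 158 and 419.7 CPM in islets and 33.8, 109.8 and 127 CPM in NDL (1.26 ± 0.67, adjusted p = 0.613). DNA replication genes had 27 of 36 positive and a median of 0.78. The nucleotide reductase gene Rrm2 measured 108, 231 and 236 against 24.1, 20.7 and 26.9 CPM (2.88 ± 0.71, adjusted p = 0.136), the helicase gene Mcm7 132, 116 and 122 against 31.9, 57.5 and 14.3 CPM (2.01 ± 0.66), and Orc6 and Lig1 differed by 3.18 ± 0.98 and 1.57 ± 0.66.

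Metabolic and other lists had 0 members past the threshold. Odc1, the first enzyme of polyamine synthesis, measured 739, 329 and 436 CPM in islets and 108, 125 and 129 CPM in NDL (1.97 ± 0.49, adjusted p = 0.136), with separate tissues, and 5 of 8 polyamine genes were positive. Glycolysis and hypoxia genes had 16 of 22 positive (median 0.61). Hif1a, the hypoxia factor, measured 321, 248 and 456 against 102, 161 and 93.8 CPM (1.51 ± 0.44, adjusted p = 0.263), and Egln3 and Pgk1 differed by 3.45 ± 1.19 and 0.92 ± 0.47. Eno1 was listed at 0 in all 3 islet libraries and in NDL library 1b, and at 45.1 and 21.7 CPM in NDL libraries 1a and 2. It has near-identical copies in the genome and its counts are uncertain. Cholesterol synthesis genes had 9 of 19 positive, with Idi1 at 2.75 ± 1.20. Interferon-induced genes had 10 of 25 positive and a median of -0.37, with single members on both sides. Gbp3 measured 241, 196 and 294 against 60.4, 104 and 37.8 CPM (1.94 ± 0.58), while Zbp1, a sensor of nucleic acids, measured 8.29, 1.1 and 2.84 against 43.7, 83.1 and 55.3 CPM (-3.82 ± 1.03). Apoptosis regulators had 8 of 22 positive, with Bcl2a1b at 1.38 ± 0.49 beside the values of Bcl2 and Pmaip1 above. Gimap genes, lymphocyte GTPases, had 5 of 8 positive with differences between -0.61 and 0.72.

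**Figure D3:**
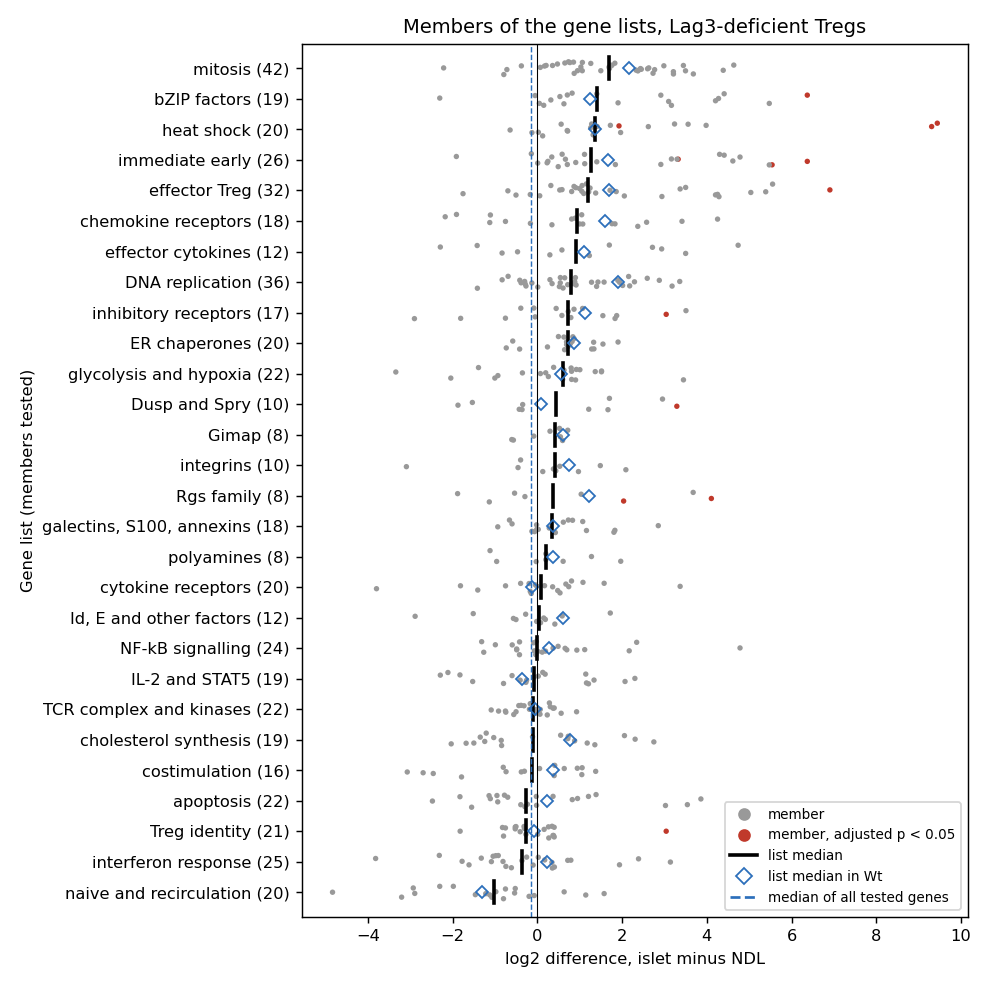
Each row is 1 gene list with the number of members tested, each point is a member's log2 difference, islet minus NDL, in Lag3-deficient libraries (red past adjusted p 0.05), the black bar is the list median and the open diamond is the median of the same list in Wt libraries. Mitosis (1.70), bZIP (1.40), heat shock (1.36) and immediate early genes (1.26) have the highest medians of the 28 lists drawn, which leave out the marker lists, naive and recirculation genes the lowest (-1.03), and the dashed line is the median of all tested genes (-0.15).

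No gene passed as lower in islets, and the genes described here had the smallest p among the lower genes with a mean log2 level of at least 4. Tmem59, a membrane protein gene, measured 38.2, 128 and 88 CPM in islets and 458, 340.3 and 303 CPM in NDL (-2.24 ± 0.47, adjusted p = 0.0725). Ppcs, an enzyme of coenzyme A synthesis, measured 0.829, 0.441 and 16.3 against 77.8, 60.5 and 138 CPM (-4.62 ± 0.99, adjusted p = 0.0725), and Fnta, a farnesyltransferase subunit, 0.0754, 0.33 and 23.9 against 151, 120.3 and 35.5 CPM (-4.74 ± 1.05, adjusted p = 0.0906). Abcg1, a cholesterol exporter, measured 13.6, 1.21 and 27.2 against 92.1, 134 and 310.0 CPM (-4.02 ± 0.94), and Gpr18 1.43, 1.71 and 8.6 against 87.8, 77.5 and 38.2 CPM (-4.03 ± 1.03). Wdr36, Xpot, Arhgef18, Jkamp and Slc35b3 differed by -3.47 ± 0.83, -3.63 ± 0.89, -3.50 ± 0.87, -3.84 ± 0.95 and -2.10 ± 0.53. Islet library 1b was the highest of its group for Ppcs, Fnta, Abcg1, Gpr18, Xpot, Arhgef18 and Slc35b3, and without it Ppcs, Fnta, Arhgef18 and Abcg1 were among the 18 genes that passed as lower.

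Igj and Hmbox1 were the 2 remaining genes that rose. Igj, which encodes the joining chain of secreted antibodies and is typical of plasma cells (now Jchain, chromosome 5, 88519809 to 88527897 in RefSeq), measured 115, 520.4 and 79.2 CPM in islets and 3.07, 0 and 0.0748 CPM in NDL (6.69 ± 1.10, adjusted p = 0.0103). Islet library 2 held the most, and without it the gene differed by 5.82 and did not pass (adjusted p = 0.109). Hmbox1, a homeobox gene (chromosome 14, 64811600 to 64949871, minus strand), was named because it passed and not by the rule on levels. It measured 18.9, 16 and 28.5 CPM in islets and 0, 0 and 0.0748 CPM in NDL (4.39 ± 0.77, adjusted p = 0.0182). In Wt cells it was at most 0.69 CPM in any library. It entered the test mainly through the 3 islet libraries in which it was high, which favoured a difference. It passed in 3 of 6 fits without 1 library, lost without any NDL library (adjusted p up to 0.134), and under 11 of 18 other settings.

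Summed exocrine, endocrine, B cell and stroma markers were also higher in the islet libraries, while myeloid and CD8 or NK sums overlapped. The part of such transcripts in the results above was not tested. Exocrine pancreas markers, 21 of 23 of which were read in at least 1 Lag3-deficient islet library, summed to 689, 35.6 and 419.6 CPM in islets and to 0, 1.2 and 0.449 CPM in NDL. The protease gene Ctrb1 measured 150.4, 29.2 and 76.1 CPM in islets and was listed at 0 in every NDL library, as were Prss2 (36.3, 1.38 and 21.6 CPM in islets) and Try4 (90.2, 0 and 42.3). Islet library 2 held the least of this RNA. Endocrine markers summed to 8.52, 3.14 and 38.4 CPM in islets and at most 0.505 CPM in NDL, with Ins2 at 2.86, 0 and 16.6 CPM and Sst listed at 0 in all 6 libraries. B cell markers summed to 705, 1033 and 338 against 239.9, 201 and 189 CPM. Most of the islet sum was Igj, Cd74 and the MHC class II genes (H2-Aa 144, 92 and 23.9 against 16.7, 10.4 and 19.5 CPM, H2-Ab1 55.2, 14.2 and 22.8 against 6.28, 2.14 and 0 CPM), while the defining B cell gene Ms4a1 (49.5, 16.1 and 0.833 against 14.2, 17 and 0.15 CPM) overlapped between tissues and Pax5 was listed at 0 in all 6 libraries. Myeloid markers did not stand apart as a sum, 829, 864 and 706 against 575, 899 and 798 CPM, of which Ctss and Cst3 made up most, but Cybb, a subunit of the phagocyte oxidase, measured 36.9, 127 and 136 against 3.93, 0 and 0.299 CPM (5.55 ± 1.21, adjusted p = 0.0852). Csf1r and Cd14 were at or near 0 in all 6 libraries, while other myeloid genes were uneven between libraries. Cd68 held 2, 586 and 0 rescaled counts in islets and 1, 25 and 0 in NDL. Tyrobp held 269, 0 and 178 in islets and 0, 0 and 1 in NDL, and Lyz2 270, 31 and 2 against 0, 565 and 0. CD8 and NK markers summed to 442, 70.7 and 380.2 against 102, 55.8 and 115 CPM, most of it from Nkg7 (439.5, 50.7 and 369.9 against 85.6, 41.5 and 104 CPM), with Klrd1 at or near 0 in all 6, while the CD8 chain genes held 0, 298 and 144 (Cd8a) and 4, 0 and 0 (Cd8b1) rescaled counts in islets and 45, 191 and 2 and 74, 22 and 132 in NDL. Stroma markers summed to 15.3, 51.5 and 224 against 6.95, 4.35 and 6.81 CPM. This list also holds the epithelial genes Epcam, Krt8 and Krt18. Epcam alone measured 0.151, 47.1 and 15.3 against 6.81, 2.84 and 0.0748 CPM. In bulk samples fewer cells of a type and less RNA per cell cannot be told apart.

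**Figure D4:**
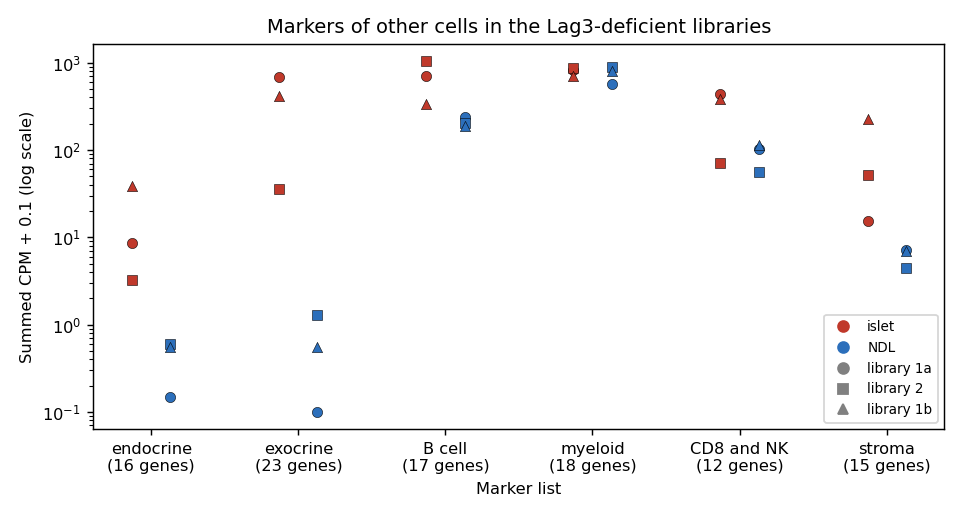
Summed CPM + 0.1 of 6 marker lists on a log axis, islet libraries in red and NDL libraries in blue with 1 symbol per library number. Exocrine and endocrine sums separate the tissues most, B cell and stroma sums less, and myeloid and CD8 or NK sums overlap.

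Wt libraries gave the same comparison in cells that keep Lag3, and no gene's tissue difference was shown to depend on the genotype. In Wt 20 genes rose in islets and 0 fell (0.184% of tested genes), of which 9 were among the 13 of the Lag3-deficient cells, 69.2% of these and 45% of the Wt genes. The 9 were Hspa1a, Hspa1b, Hsp90aa1, Fos, Dusp1, Rgs1, Rgs2, Ctla4 and Igj. All 13 had a positive difference in Wt, 12 of them without overlap, where 8.37% of all genes stood so. The tests of the difference between genotypes gave 0 genes past the threshold in limma, 437 at an unadjusted p under 0.05 (4.02%), and 0 with voom weights. The 2 tissue differences correlated across the 10868 genes (genes are no replicates) at Pearson r = 0.293 and Spearman rho = 0.235. The comparisons share no library, but a single model gave both with the same estimate of each gene's spread, so they are not independent tests.

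Sizes in the genotypes are set side by side for single genes. Hspa1a differed by 9.31 ± 0.81 in Lag3-deficient and 9.59 ± 0.81 in Wt cells, Hspa1b by 9.44 ± 0.85 and 10.63 ± 0.85, Rgs2 by 4.11 ± 0.55 and 4.08 ± 0.55, and Hsp90aa1 by 1.93 ± 0.37 and 1.96 ± 0.37. For Ctla4 the values were 3.04 ± 0.34 and 2.28 ± 0.34, a difference of 0.76 ± 0.48 (unadjusted p = 0.127, adjusted p = 1 by limma over all genes). Ppp1r15a and Klf6 did not pass in Wt (3.62 ± 0.86 and 1.95 ± 0.62), and Il10 just missed there (6.02 ± 1.25, adjusted p = 0.0569), but the tests of the differences gave 1.92 ± 1.22, 1.37 ± 0.88 and 0.89 ± 1.77, none past the threshold. For Hmbox1, at a mean log2 level under 4, the difference between genotypes was 4.31 ± 1.09 (unadjusted p = 0.0008, adjusted p = 1). Genes that passed in Wt and not here included Ccl5 (5.19 ± 0.84 in Wt, 2.93 ± 0.84 in Lag3-deficient cells) and Dnajb1 (3.68 ± 0.52 and 2.62 ± 0.52). The smallest p at a mean log2 level of at least 4 belonged to Fam46a, a poly(A) polymerase gene, at 279, 291 and 151 CPM in Lag3-deficient islets, 52.7, 37.2 and 37 in Lag3-deficient NDL, 147, 128 and 96.9 in Wt islets and 137, 183 and 126 in Wt NDL (2.70 ± 0.70, unadjusted p = 0.00107, adjusted p = 1). Azin1, an antizyme inhibitor, had a difference between genotypes of -3.32 ± 0.87, the histone chaperone gene Asf1b of -6.32 ± 1.69, the cysteine desulfurase gene Nfs1 of -5.78 ± 1.65, Jkamp of -4.63 ± 1.35 and Slc35b3 of -2.69 ± 0.75, each with an adjusted p of 1. Among lists, mitosis genes had medians of 1.70 in Lag3-deficient and 2.17 in Wt cells, DNA replication genes 0.78 and 1.90, and heat shock genes 1.36 and 1.35, where the medians of all genes were -0.15 and 0.10.

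**Figure D5:**
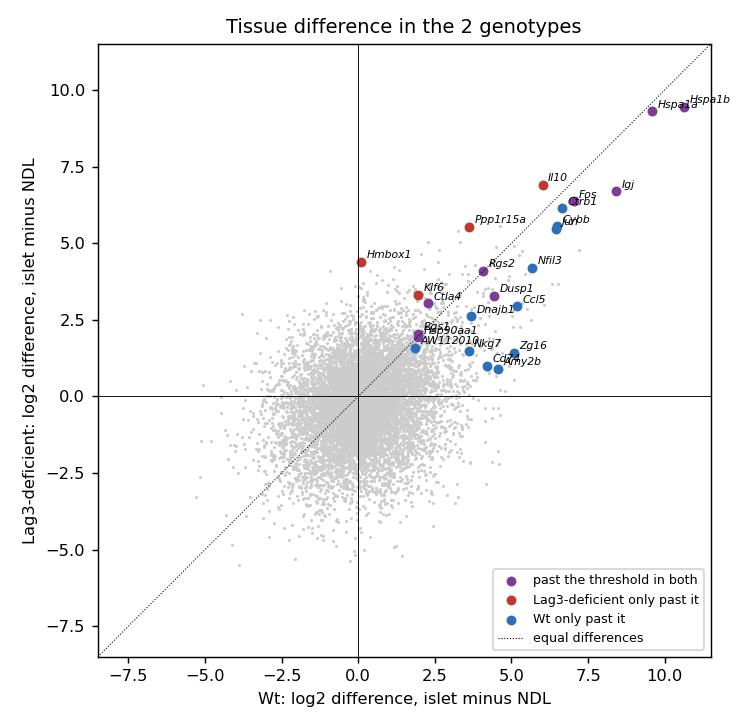
Each point is 1 of the 10868 tested genes, with the log2 difference, islet minus NDL, of Wt libraries on the horizontal axis and of Lag3-deficient libraries on the vertical axis, and the dotted line marks equal differences. The 9 genes past the threshold in both (purple) lie in the upper right with all 11 that passed only in Wt (blue), and Hmbox1 is the red gene near 0 in Wt.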

How the data were processed

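RNA of 12 mouse Treg libraries was sequenced, and 2 gene tables were deposited. Per the submitters' processing notes TopHat2, DESeq2 and mm10 were used, without versions or roles. The sources used here do not state the kit, strand or counting. The values of the first deposited table are a signal, whole numbers scaled by the authors to nearly equal totals, and not raw counts, so no count model was used. The second deposited table, a signal in 10317 genes with nearly equal distributions, served as an alternative.

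Genes that reached 10 rescaled counts in 3 or more of the 12 libraries were tested (10868 of 21708 above 0) with limma 3.58.1 in R 4.3.3, with a mean-variance trend, on log2(CPM + 1) scaled by TMM (trimming 30% of ratios and 5% of levels). A single model had the 4 groups as terms, 8 residual degrees of freedom and no pairing. The code was tested on simulated data. Levels in CPM carry the same scaling, and depth is unknown. Genes named were 7 fixed ones, up to 15 past the threshold per direction at a mean log2 level of 4 or more without overlap (or, under 10, the smallest p), 4 per list with the smallest p, and 6 for the difference between genotypes. Members and lists were chosen with earlier results of these data known, and lists were given no test. A few named genes are not reported here. Alternatives varied scaling, constant, filter, libraries, weights and table.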

Additional observations from a re-analysis of the deposited data

Results flagged for a closer look

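For 2 named genes the libraries of the genotypes moved in opposite directions between tissues, each without overlap. Azin1, which encodes an inhibitor of antizyme and so sustains polyamine synthesis, measured 84, 17.1 and 76.5 CPM in Lag3-deficient islets against 103, 108 and 106 in NDL, and 158, 271 and 246 CPM in Wt islets against 53.6, 52 and 37.2 in NDL. The difference between the tissue differences was -3.32 ± 0.87. Slc35b3, which encodes a sulfate donor transporter of the Golgi, measured 43, 40.4 and 75.4 against 131, 233 and 351 CPM in Lag3-deficient cells and 148, 134 and 138 against 123, 86.7 and 72.7 CPM in Wt cells, a difference of -2.69 ± 0.75. In the test over all genes (limma) both had an adjusted p of 1, and they were noticed among many genes.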

How the results depend on the processing

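In Lag3-deficient cells 13 genes were higher and 0 lower in islets. The higher count was 25 with RLE factors and 26 in the second deposited table, where all 13 passed again. It was 7 with no filter on low values and 8 with only the 6 Lag3-deficient libraries, each with 7 of the 13 among them. It ranged from 9 to 14 without each library in turn. The lower count was 1 with RLE factors, 4 with voom weights, 5 in the second table, 9 without the 1b columns, 2 without islet library 2 and NDL library 1b together (chosen after seeing the data), and from 0 to 18 without each library in turn, 18 being without islet library 1b. In Wt cells the higher count of 20 became 11 with no filter, 47 with voom weights, 10 tested against a fold of 1.5, 8 without the 1b columns, and 9 to 23 without each library in turn, lowest without islet library 1a. The Wt lower count of 0 became 1 with RLE factors, 1 with only the 6 Wt libraries, 7 with voom weights, 2 in the second table, and 0 to 1 without each library. The test of the difference between genotypes gave 0 genes under each of these settings, with a smallest adjusted p of 0.0632 (without islet library 1b). The median difference of the Rgs list was 0.77 with a constant of 0.25, 0.061 with 4, -0.296 with a filter in at least 6 libraries and 0.88 with voom weights. The immediate early median was 2.01 with voom weights, 1.72 in the second table, 1.88 without the 1b columns and 1.21 to 1.95 without each library. Without the 1b columns the medians were 2.06 for bZIP factors, 0.26 for glycolysis, -1.34 for apoptosis and 0.0088 for Gimap genes. Without islet library 2 and NDL library 1b they were 0.16 for interferon genes and 0.39 for glycolysis. Without each library in turn the medians ranged from -0.23 to 0.10 for Treg identity, 0.26 to 1.18 for inhibitory receptors, -0.59 to 0.39 for costimulation, 0.31 to 0.77 for glycolysis, -1.05 to 0.34 for apoptosis and -0.027 to 0.60 for Gimap genes. The direction turned for Cd4 (0.13) and Gimap4 (-0.26) without the 1b columns, and for Dusp6 (0.29), Epcam (-0.43) and Lag3 (0.014) without islet library 2 and NDL library 1b. Without each library Eomes ranged from -1.21 to 0.44, Gimap4 from -0.094 to 0.91 and Lag3 from -0.14 to 0.0012. Fewer libraries or genes enter some of these fits, and for the others the cause was not tested. Of the named genes' values under the alternatives, 2627 kept their direction and side of the threshold, 47 lost the threshold, 57 gained it and 8 turned. No paired analysis was possible because the headers carry the numbers 1, 2 and 1 in each group, so that only number 2 could match a library of another group singly. A term for the 1b columns, which leaves the differences as they are and alters only the spread, gave 14 higher genes in Lag3-deficient and 15 in Wt cells. Depth is unknown, so values near 0 are the least certain.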

Other observations

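The balance of higher and lower genes in Lag3-deficient cells changed with the level of expression. Among the 541 tested genes with a mean log2 level above 8, 38 were higher and 13 lower in islets at an unadjusted p under 0.05, with a median difference of 0.23. Among the 2910 genes with a level between 2 and 4, 69 were higher and 191 lower, with a median of -0.42. With no filter on low values the split over 21708 genes was 1024 higher and 605 lower. Between 6 and 8 there were 91 higher and 75 lower genes. The balance over all tested genes also moved with the scaling, to 496 higher and 525 lower with RLE factors, and with 1 library, to 442 higher and 388 lower without islet library 2.

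Transcripts of connective tissue and vessels were concentrated in islet library 1b. The fibroblast gene Dcn held 0, 6 and 1100 rescaled counts in islet libraries 1a, 2 and 1b, the collagen gene Col3a1 1, 8 and 743, the endothelial receptor gene Kdr 0, 3 and 235 and the smooth muscle gene Acta2 5, 0 and 117. In the NDL libraries none of these 4 genes held more than 2.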
